A study of Mus musculus with 20 samples.

Results

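The comparison set the distal colon (DC) of 5 mice fed 10% resistant potato starch (RPS) against that of 5 mice fed 2% RPS, out of 20 mice on 4 diets. Members were chosen by the RPS level in the description of each sample: mice RS10_725, RS10_727, RS10_729, RS10_731 and RS10_784 at 10% RPS, and mice RS10_709, RS10_712, RS10_715, RS10_716 and RS10_748 at 2% RPS. All were male C57BL/6 mice bred in house. After weaning they ate the Total Western Diet (TWD), made to match what people in the United States typically eat, for 6 weeks, and then the TWD with RPS for 3 weeks. Both groups therefore ate RPS, and the comparison asks what the high dose (10% RPS) did beyond the low dose (2% RPS). The tissue was a whole piece of colon near the anal end, so each library mixed epithelium with muscle, nerve and immune cells. Polyadenylated RNA was sequenced with 1 library per mouse.

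For 2 of these mice the labels disagree. The treatment label gives 5% RPS for mouse RS10_725 and 10% RPS for mouse RS10_748, against 10% and 2% in their descriptions, and 1 further mouse of the series, RS10_717, is 5% in its description and 2% in its treatment label. The calls and the counts over the main gene lists are given with and without the 3 mice.

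Resistant starch escapes digestion in the small intestine and is fermented by bacteria in the cecum and colon to short-chain fatty acids, among them butyrate, the main fuel of colonocytes. The distal colon takes up sodium, chloride and water from the stool. Sodium enters either through electroneutral exchange, in which the sodium/hydrogen exchanger Slc9a3 works beside the chloride/bicarbonate exchanger Slc26a3, or through the epithelial sodium channel (ENaC), which is built from Scnn1a, Scnn1b and Scnn1g and is under the control of aldosterone. Cells near the crypt surface carry most of this absorptive machinery, while stem cells and dividing cells lie at the crypt base.

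The total count was 24.3 ± 3.42 megacounts (M) at 10% RPS (SD, n = 5, range 18.4 to 26.6 M) and 27.9 ± 2.61 M at 2% RPS (24.5 to 31.1 M). The difference was -3.55 M (exact two-sided permutation test, p = 0.0873, where 5 against 5 mice can reach 0.0079). A count of 3, taken as the floor of detection, corresponded to between 0.0972 and 0.163 CPM (counts per megacount of library after scaling) across these libraries. All 11 listed markers that define colon epithelium passed the filter on low counts, and their summed level was 16440 to 21400 CPM on the high dose and 15420 to 17790 CPM on the low dose.

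At 10% RPS, 4 of 17893 tested genes were called against 2% RPS (0.0224%), and all 4 were higher. A gene was called when the quasi-likelihood F-test of edgeR gave a Benjamini-Hochberg adjusted p of at most 0.05 and the levels differed by at least 1.5-fold. The 4 genes were Slc26a3, Abcg2, Mgam2-ps and ENSMUSG00000085375. The 5 mice at 10% RPS lay above all 5 mice at 2% RPS for each of them. Below the level of a call, 1016 genes (5.68%) were higher and 1194 genes (6.67%) lower at an unadjusted p under 0.05, and 178 genes (0.995%) were higher and 200 genes (1.12%) lower with no overlap between the groups. Without the 3 mice of disagreeing labels, 962 genes were higher and 832 lower at an unadjusted p under 0.05. In the counts over gene lists that follow, higher and lower mean at 10% RPS and at an unadjusted p under 0.05. Each such count is to be read beside the 5.68% higher and 6.67% lower over all tested genes.

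Slc26a3 (ENSMUSG00000001225, GRCm39 chromosome 12, 31440870 to 31523916) encodes the chloride/bicarbonate exchanger of the colonocyte brush border, whose loss in people causes congenital chloride diarrhea. It measured 1505, 1543, 1599, 1731 and 1781 CPM in the mice at 10% RPS, and 909, 970, 1050, 1059 and 1250 CPM in those at 2% RPS. Even the lowest mouse on the high dose was above the highest on the low dose. The mean rose from 1048 ± 129 to 1632 ± 119 CPM (SD, n = 5). The log2 fold change was 0.64 ± 0.10 (SE, adjusted p = 0.0154 by edgeR) or 1.56-fold. The mice at 0% and 5% RPS, at 1102 ± 157 and 1159 ± 77.9 CPM, had means near that of the 2% RPS group.

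The 250 bases before the start of Slc26a3 are shown because this gene had the smallest p of the comparison (RefSeq, GRCm38.p6, chr12:31437969-31438218, plus strand). Capitals mark the nuclear receptor half-site CAAAGGTCA, of the type that HNF4 binds, and the TATA box TATAAA, each searched on both strands.
Slc26a3: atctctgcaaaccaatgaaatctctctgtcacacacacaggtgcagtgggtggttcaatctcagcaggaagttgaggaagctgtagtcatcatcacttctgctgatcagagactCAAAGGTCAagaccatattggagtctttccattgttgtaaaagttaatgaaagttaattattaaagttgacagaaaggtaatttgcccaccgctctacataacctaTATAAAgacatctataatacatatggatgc
The half-site began 136 bases before the start and the TATA box 30 bases before it. Of 32851 RefSeq windows of the same length, 0.426% held CAAAGGTCA and 12.4% held TATAAA. The window before the most upstream listed start of Abcg2 held neither, and the window of Aqp8 held neither. These matches are descriptions of letters and not evidence of binding.

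Abcg2 (ENSMUSG00000029802, chromosome 6, 58561505 to 58672661) encodes an efflux pump of the apical membrane that exports urate, porphyrins and many plant compounds and drugs. It measured 78.4, 92.8, 93.7, 99.4 and 100.7 CPM on the high dose and 50.7, 60.8, 61.9, 62.4 and 65.1 CPM on the low dose. The groups did not overlap, and the lowest value on the high dose came from mouse RS10_727. The log2 fold change was 0.63 ± 0.11 (SE, adjusted p = 0.0365 by edgeR), or 1.54-fold. Means of 78.8 ± 14.8 CPM at 5% RPS and 56.5 ± 5.07 CPM at 0% RPS placed the 5% RPS group between the 2% and 10% RPS groups.

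Mgam2-ps (ENSMUSG00000102802, chromosome 6, 40755628 to 40845098) lies in the maltase-glucoamylase family of starch-digesting enzymes, and the annotation lists it as protein coding in spite of its symbol. Its levels were 75.3, 75.6, 81.7, 87.8 and 99.2 CPM on the high dose and 47.9, 51.5, 52.3, 58.7 and 61.8 CPM on the low dose. The 5 mice on the high dose were all higher, with a log2 fold change of 0.63 ± 0.11 (SE, adjusted p = 0.0365 by edgeR). Its count is uncertain where reads also match other genes of the family, since the handling of such reads is not stated. ENSMUSG00000085375, an identifier that is not in the annotation used here, was a low-level gene at 3.61 ± 0.906 CPM on the high dose and 1.49 ± 0.215 CPM on the low dose (SD, n = 5). It had the largest rise of the called genes, 2.43-fold, with a log2 fold change of 1.28 ± 0.20 (SE, adjusted p = 0.0154 by edgeR).

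**Figure D1:**
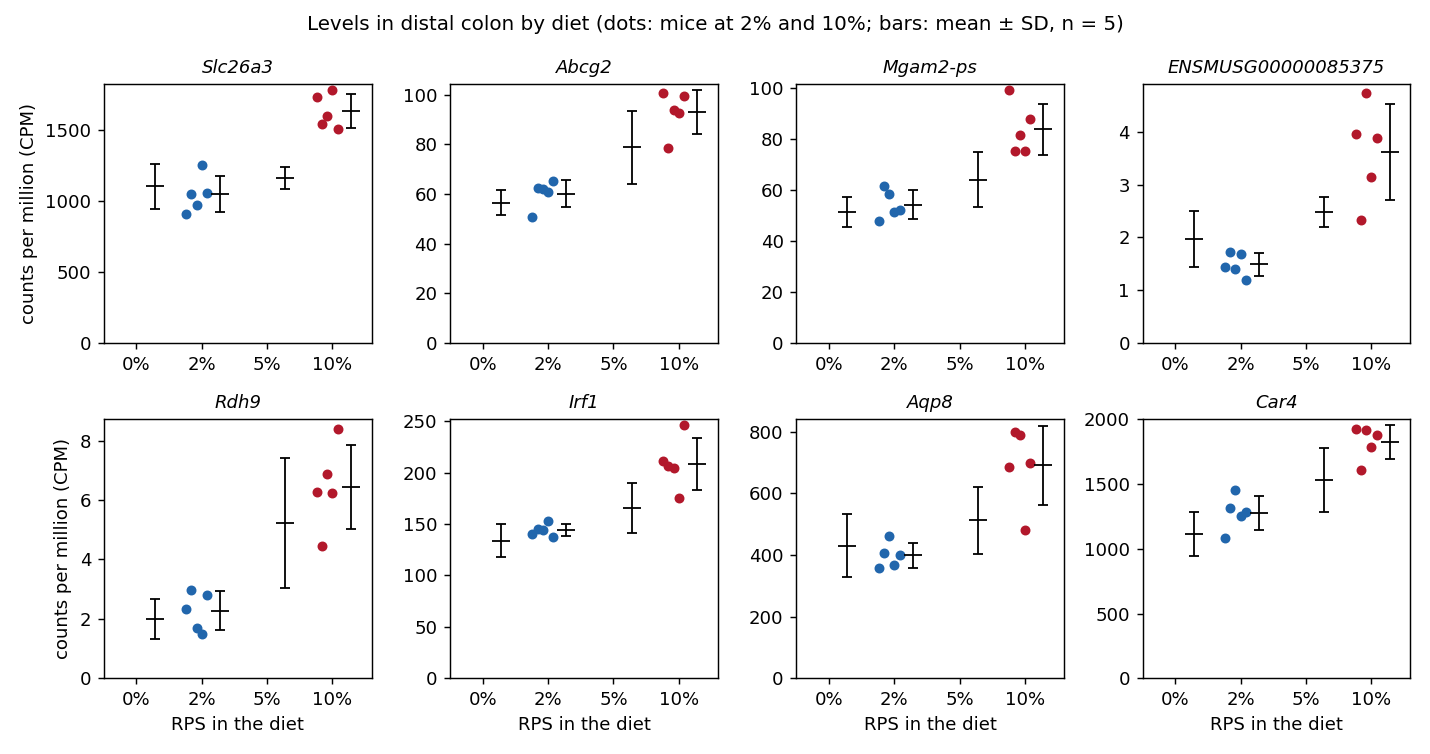
Levels of the 4 called genes (top row) and of 4 genes that were not called (bottom row) by RPS level in the diet, in CPM. Dots are the 5 mice at 2% RPS (blue) and the 5 at 10% RPS (red), and bars are means ± SD for all 4 diets. In each panel all red dots lie above all blue dots.

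The number of calls depended on single mice. With mouse RS10_725, RS10_729, RS10_709 or RS10_748 left out, 0 genes were called. With RS10_784 left out 1 gene was called, with RS10_716 left out 2, with RS10_712 left out 3, and with RS10_731 or RS10_715 left out 4 each. Without mouse RS10_727, which had the smallest library (18.4 M), 88 genes were called, 46 higher and 42 lower, among them all 4. With both RS10_725 and RS10_748 left out 0 genes were called, and so it was with all 3 mice of disagreeing labels left out and with groups taken from the treatment label. The log2 fold change of Slc26a3 moved little by comparison: it was 0.63 without the 3 mice (edgeR adjusted p = 0.267), 0.51 under the treatment label (edgeR adjusted p = 0.735) and between 0.60 and 0.72 when single mice were left out. For Abcg2, Mgam2-ps and ENSMUSG00000085375 it was 0.64, 0.55 and 1.18 without the 3 mice, and the edgeR adjusted p was 0.267 for all 3 genes.

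DESeq2 with the same thresholds called 80 of the 15892 genes to which it gave an adjusted p (0.503%), 58 higher and 22 lower, and they included the 4 genes called by edgeR. The other 76 genes were not called by edgeR, and those of them named below were chosen partly after their values were seen.

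**Figure D2:**
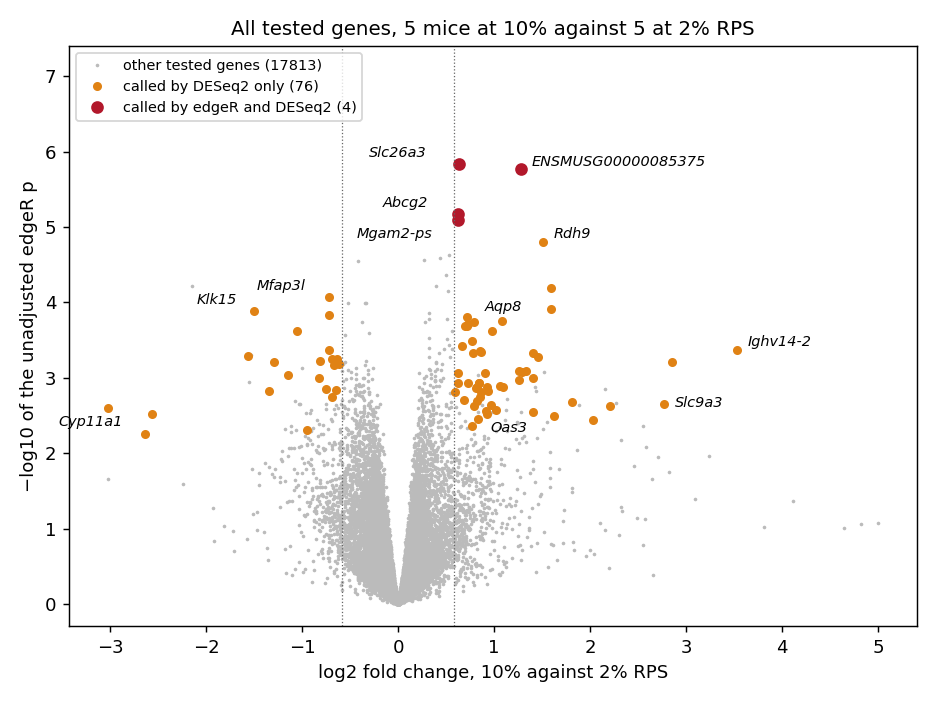
Each dot is 1 of 17893 tested genes, with the log2 fold change of 10% against 2% RPS on the horizontal axis and -log10 of the unadjusted edgeR p on the vertical axis. The 4 genes called by edgeR (red) are all to the right of the 1.5-fold line (dotted), and the 76 genes called by DESeq2 alone (orange) lie on both sides.

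Some other genes of electroneutral exchange were also higher but did not pass the test. Slc9a3, the apical sodium/hydrogen exchanger, measured 23.0, 71, 79.8, 133 and 147.7 CPM on the high dose and 8.20, 10.8, 12.5, 14.8 and 20.1 CPM on the low dose. The groups did not overlap, but mouse RS10_727 was close to the low-dose mice. The log2 fold change of 2.77 ± 0.77 (SE, 6.84-fold) had an adjusted p of 0.19 by edgeR and of 0.0213 by DESeq2. Nherf1, the scaffold that holds such exchangers at the brush border, measured 267 ± 58.7 against 193 ± 28.4 CPM (SD, n = 5, edgeR adjusted p = 0.171). Of the 13 tested sodium, chloride and bicarbonate exchangers and their scaffolds, 4 were higher and 1 lower at an unadjusted p under 0.05. Their summed level was 3256 to 3944 CPM on the high dose and 2461 to 2823 CPM on the low dose, without overlap. With Slc26a3 left out, a setting chosen after seeing the data, the sums overlapped, at 1713 to 2167 CPM against 1550 to 1773 CPM. The median log2 fold change of the list was 0.17 beside -0.0072 over all tested genes, and without the 3 mice of disagreeing labels 4 were again higher and 1 lower.

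Levels of the ENaC subunits differed in direction, and none passed the test. Scnn1b measured 10.2, 10.5, 10.9, 12.4 and 23.8 CPM on the high dose and 16.4, 27.1, 27.2, 28.8 and 29.9 CPM on the low dose, and 1 mouse of each group (RS10_727 and RS10_715) lay inside the range of the other group. Its log2 fold change was -0.94 ± 0.34 (SE, adjusted p = 0.276 by edgeR). Scnn1g measured 3.53, 4.04, 8.996, 11.02 and 24.0 CPM on the high dose and 21.7, 25.6, 26.5, 34.2 and 38.6 CPM on the low dose. Only mouse RS10_727 of the high-dose group reached the range of the low dose, and the log2 fold change was -1.52 ± 0.57 (SE, adjusted p = 0.293 by edgeR). Scnn1a had a log2 fold change of 0.13 ± 0.10 (SE, adjusted p = 0.634 by edgeR). Of the 13 tested genes of the channel and the aldosterone pathway, 1 was higher and 2 lower at an unadjusted p under 0.05, and without the 3 mice of disagreeing labels 1 was higher and 0 lower.

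Carbonic anhydrases supply the bicarbonate and protons that the exchangers trade. Car4, the membrane-bound enzyme of the colonocyte surface (ENSMUSG00000000805, chromosome 11, 84848020 to 84856879), measured 1610, 1787, 1878, 1916 and 1926 CPM on the high dose and 1082, 1255, 1283, 1315 and 1451 CPM on the low dose. All 5 mice on the high dose were higher, by 1.43-fold, with an edgeR adjusted p of 0.114. Of the 10 carbonic anhydrase genes tested, 4 were higher (Car4, Car13, Car9 and Car12) and 2 lower (Car7 and Car14) at an unadjusted p under 0.05, and without the 3 mice of disagreeing labels 4 were higher and 1 lower. Among chloride and potassium channel genes 2 of 14 were higher and 1 lower. Best2, a bicarbonate channel of goblet cells, measured 48.7 ± 7.59 against 74.3 ± 8.16 CPM (SD, n = 5, edgeR adjusted p = 0.171) without overlap, and Clca4a measured 458 ± 241 against 153 ± 44.5 CPM (edgeR adjusted p = 0.319).

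Of all lists, the surface colonocyte markers had the largest share of members higher at 10% RPS. Of 17 tested markers, 11 were higher and 0 lower at an unadjusted p under 0.05, beside 5.68% and 6.67% of all tested genes, and 6 were higher with no overlap. None was called by edgeR, and DESeq2 called 3 (Aqp8, Krt20 and Tmigd1). Their median log2 fold change was 0.37. Without the 3 mice of disagreeing labels the same count, 11 of 17, was higher. The 11 markers that define colon epithelium, Slc26a3 among them, all had a log2 fold change above 0, with a median of 0.19. Of these, 4 were higher and 0 lower, or 5 higher and 0 lower without the 3 mice. In whole tissue, more cells of a type and more RNA per cell cannot be told apart.

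Aqp8 (ENSMUSG00000030762, chromosome 7, 123061514 to 123067227), a water channel of absorptive colonocytes, measured 482, 685, 697, 789.5 and 799 CPM on the high dose and 358, 369, 401, 405 and 463 CPM on the low dose. Mouse RS10_731 was lowest of the high dose, just above the highest mouse of the low dose. The log2 fold change was 0.79 ± 0.17 (SE, adjusted p = 0.114 by edgeR and 0.0031 by DESeq2). Cdhr2, a cadherin that links the tips of microvilli, measured 501 ± 46.3 against 379.8 ± 20.3 CPM, and Cdh17, the liver-intestine cadherin, 613 ± 75.9 against 470.2 ± 27.9 CPM (SD, n = 5). Neither of these cadherins overlapped between groups, with edgeR adjusted p-values of 0.0887 and 0.171. Krt20, a keratin of mature surface cells, measured 1059 CPM on the high dose and 597 CPM on the low dose on average (edgeR adjusted p = 0.19).

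**Figure D3:**
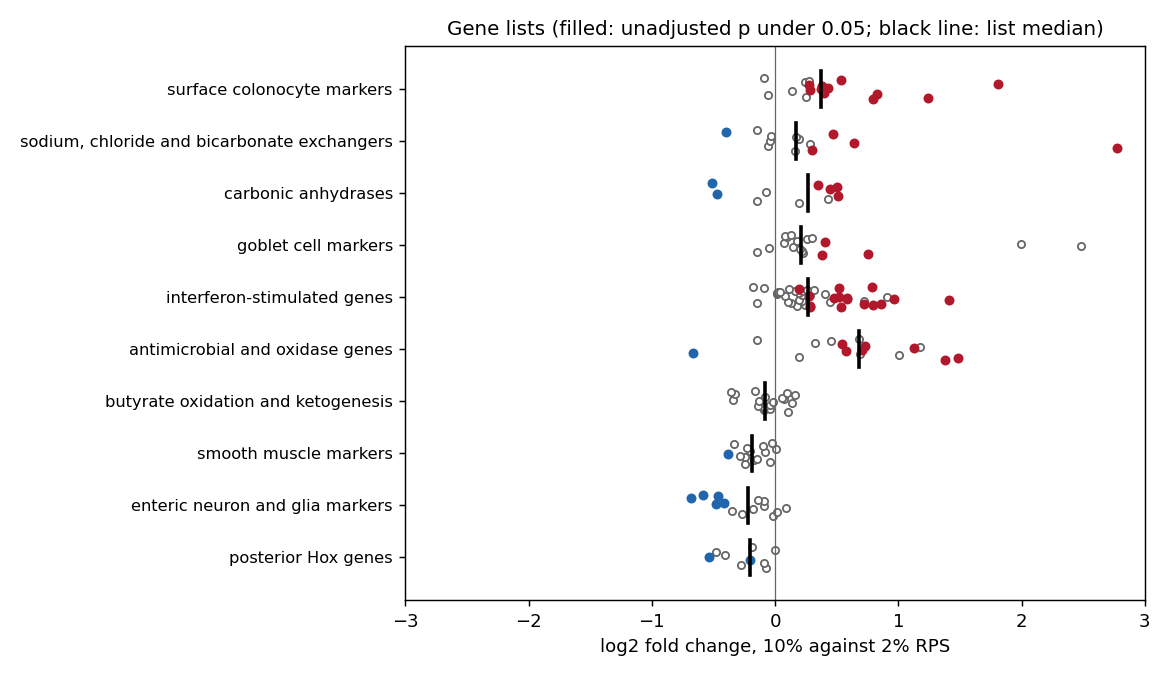
Log2 fold changes of 10% against 2% RPS for the tested members of 10 gene lists, 1 dot per gene. Filled dots had an unadjusted p under 0.05 (red higher, blue lower at 10% RPS), open dots did not, and black lines are list medians. The surface colonocyte list holds 11 red dots and the butyrate oxidation list has no filled dot.

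No difference was detectable in most genes that handle butyrate itself. Of 19 tested genes of butyrate oxidation and ketogenesis, 0 were higher and 0 lower at an unadjusted p under 0.05, with a median log2 fold change of -0.082. For the butyrate transporters, Slc16a1 had a log2 fold change of 0.08 ± 0.08 and Slc5a8 one of 0.23 ± 0.11 (SE), with edgeR adjusted p-values of 0.713 and 0.378. Of the 8 tested genes of short-chain fatty acid transport and sensing, 3 were higher (Bsg, Slc16a3 and Slc5a8) at an unadjusted p under 0.05, and 1 was without the 3 mice of disagreeing labels. Among sugar transporters, hexokinases and disaccharidases, Hk2 measured 274 ± 80.9 against 161 ± 21.7 CPM (edgeR adjusted p = 0.212), with mouse RS10_731 at 133 CPM below all mice of the low dose.

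Genes of retinoid metabolism went in both directions, with 5 of 21 higher and 5 lower, or 4 higher and 1 lower without the 3 mice of disagreeing labels. Rdh9, a retinol dehydrogenase (ENSMUSG00000056148, chromosome 10, 127612255 to 127628566), measured 4.46, 6.25, 6.27, 6.86 and 8.39 CPM on the high dose and 1.501, 1.70, 2.33, 2.82 and 2.98 CPM on the low dose. The groups were well apart, and the log2 fold change of 1.51 ± 0.27 (SE, 2.84-fold) missed the threshold with an edgeR adjusted p of 0.0561. Dhrs9, another retinol dehydrogenase, measured 8.46 ± 4.85 against 2.32 ± 0.504 CPM (SD, n = 5, edgeR adjusted p = 0.253), while the retinol carrier Rbp4 measured 8.26 against 11.1 CPM on average (edgeR adjusted p = 0.284). Cyp11a1, which makes pregnenolone from cholesterol and so begins steroid synthesis, measured 0.152, 0.272, 0.349, 0.353 and 0.725 CPM on the high dose and 1.03, 1.79, 2.04, 2.13 and 4.57 CPM on the low dose. No mouse of the high dose reached the low-dose range, and the fold change had an adjusted p of 0.227 by edgeR and of 0.0455 by DESeq2. The lowest high-dose value, 0.152 CPM, was near the floor of detection, 0.114 to 0.163 CPM in that group, so the size of the fall is uncertain. It was the only one of 7 tested steroid synthesis genes at an unadjusted p under 0.05.

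Of the 29 tested genes of xenobiotic efflux and detoxification, to which Abcg2 belongs, 5 were higher and 2 lower. Ces2e, a carboxylesterase of the intestinal lining, measured 97.5, 104.7, 105.0, 107.0 and 114.1 CPM on the high dose and 52.4, 63.0, 69.2, 70.0 and 70.8 CPM on the low dose. The groups did not overlap, and the log2 fold change of 0.70 ± 0.16 (SE) had an edgeR adjusted p of 0.116. Cyp2w1, a cytochrome P450, was in the opposite direction at 2.14 ± 0.350 against 5.26 ± 1.76 CPM (SD, n = 5, edgeR adjusted p = 0.17). Heph, the ferroxidase that passes iron on from enterocytes, measured 113 ± 13.5 against 79.5 ± 3.40 CPM with no overlap (edgeR adjusted p = 0.077). The metallothionein Mt1 measured 49.4 ± 14.4 against 102 ± 61.8 CPM (edgeR adjusted p = 0.305), with mouse RS10_715 at 210 CPM the highest of the low dose. Of the 16 metallothioneins, zinc and iron transport genes, 2 were higher and 3 lower, and without the 3 mice of disagreeing labels 1 was higher and 2 lower.

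Interferon-stimulated genes, the antiviral effectors and sensors that cells switch on after interferon binds its receptor, lay mostly above their level at 2% RPS. Of 42 tested, 16 were higher and 0 lower at an unadjusted p under 0.05, beside 5.68% and 6.67% of all tested genes. A log2 fold change above 0 was found in 39 of the 42, beside 8633 of all 17893 tested genes. Their summed level was 1263 to 1692 CPM on the high dose and 1051 to 1247 CPM on the low dose, with no overlap. The lowest mouse of the high dose, at 1263 CPM, was close to the highest of the low dose. With Ifit1bl1 left out the sums overlapped, at 965.9 to 1275 CPM against 855.7 to 995.4 CPM, and so they did with Irf1 left out, at 1057 to 1517 CPM against 911.4 to 1102 CPM. The median log2 fold change was 0.27. Without the 3 mice of disagreeing labels 10 of 42 were higher. None was called by edgeR, and DESeq2 called 3 (Ifit1bl1, Mx1 and Oas3).

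Irf1 (ENSMUSG00000018899, chromosome 11, 53660812 to 53669200), a transcription factor that drives many of these genes, measured 174.9, 204.7, 206.0, 211.5 and 246.1 CPM on the high dose and 137.8, 140.0, 144.4, 145.1 and 153.1 CPM on the low dose. The groups did not overlap, and the log2 fold change was 0.53 ± 0.10 (SE, 1.45-fold, edgeR adjusted p = 0.0564). Oas3, a sensor of double-stranded RNA, measured 1.25, 4.33, 4.39, 7.16 and 7.95 CPM on the high dose and 1.33, 1.68, 1.75, 2.02 and 2.69 CPM on the low dose. Mouse RS10_727 lay below all mice of the low dose and the other four above them, with an edgeR adjusted p of 0.191. Mx1, an antiviral dynamin-like protein, measured 8.02 ± 2.77 against 4.11 ± 0.810 CPM (SD, n = 5, edgeR adjusted p = 0.19), and Zbp1, a sensor of Z-form nucleic acids that can start necroptosis, 25.8 ± 10.6 against 13.8 ± 4.34 CPM (edgeR adjusted p = 0.451).

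The 250 bases before Irf1 and Oas3 are shown because each holds letters known from interferon signaling (RefSeq, GRCm38.p6). Irf1 lies at chr11:53769764-53770013 on the plus strand, before the more upstream of its 2 listed starts, and Oas3 at chr5:120777660-120777909 on the minus strand. Capitals mark the STAT site TTCNNNGAA and the aryl hydrocarbon receptor core GCGTG in Irf1, and the core of the interferon-stimulated response element, GAAANNGAA, and the CDX site TTTATGG (here as its reverse complement) in Oas3. The 2 matches of GAAANNGAA overlap.
Irf1: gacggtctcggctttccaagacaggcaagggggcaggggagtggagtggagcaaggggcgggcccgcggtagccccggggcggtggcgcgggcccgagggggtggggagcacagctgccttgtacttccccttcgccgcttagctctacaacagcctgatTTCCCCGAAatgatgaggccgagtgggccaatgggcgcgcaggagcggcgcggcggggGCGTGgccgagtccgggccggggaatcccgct
Oas3: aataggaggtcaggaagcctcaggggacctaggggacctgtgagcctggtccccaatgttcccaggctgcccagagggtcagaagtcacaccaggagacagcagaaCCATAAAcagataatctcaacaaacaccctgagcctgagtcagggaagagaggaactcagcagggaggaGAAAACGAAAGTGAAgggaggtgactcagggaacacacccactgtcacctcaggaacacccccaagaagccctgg
The STAT letters began 90 bases before the start of Irf1, and the response-element letters 75 and 69 bases before that of Oas3. Searched on both strands, TTCNNNGAA was in 7.02% of all windows, GAAANNGAA in 7.13%, GCGTG in 28.2% and TTTATGG in 2.43%.

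Of 13 interferon-inducible GTPases 1 was higher, and of 17 antigen presentation genes 2, the class I genes H2-K1 and H2-D1. These counts were 0 and 2 without the 3 mice of disagreeing labels. H2-K1 measured 775 ± 73.8 against 614 ± 61.1 CPM with no overlap (SD, n = 5, edgeR adjusted p = 0.171). Of 16 antimicrobial and oxidase genes 7 were higher and 1 lower, with a median log2 fold change of 0.68, and without the 3 mice of disagreeing labels 4 were higher and 0 lower. The summed level of this list was 1360 to 2111 CPM on the high dose and 1471 to 1822 CPM on the low dose, so the groups overlapped. Duox2, the oxidase that releases hydrogen peroxide at the surface, measured 102.1, 104.9, 112.2, 205.0 and 216.3 CPM on the high dose and 67.1, 83.4, 90.6, 103.2 and 110.0 CPM on the low dose. Only mice RS10_725 and RS10_784 stood clearly above the low dose, and the edgeR adjusted p was 0.249. Retnlb, a goblet cell protein that acts on bacteria, was near the counting floor in most of these libraries, with 0.155 to 2.05 CPM on the high dose and 0.0324 to 0.442 CPM on the low dose.

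Of 144 tested immunoglobulin genes 16 were higher and 1 lower, with a median log2 fold change of 0.51, and without the 3 mice of disagreeing labels 8 were higher and 3 lower. Their summed level ranged from 2948 to 6479 CPM on the high dose and from 1334 to 4742 CPM on the low dose, so the groups overlapped. The heavy chain Ighg1 measured 37.5 ± 12.3 against 18.7 ± 15.6 CPM (SD, n = 5, edgeR adjusted p = 0.545). Counts of single variable segments are uncertain because their sequences are much alike. Of 12 plasma cell genes that are not immunoglobulins, 3 were higher (Tnfrsf17, Derl3 and Fkbp11), with a median of 0.44, and 1 was without the 3 mice. B cell, T cell and macrophage markers gave 0 of 12, 1 of 11 and 1 of 12 higher and none lower. With those mice left out 0 T cell markers were higher, and 1 macrophage marker was higher and 1 lower.

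Goblet cell markers were higher in 3 of 18 cases, Clca1, Klk1 and Muc2. Clca1, a secreted protease that loosens mucus, measured 2921 ± 708.5 against 1729 ± 482 CPM, with mouse RS10_715 of the low dose, at 2536 CPM, inside the high-dose range (edgeR adjusted p = 0.236). The peptide hormone Pyy was the only one of 12 enteroendocrine markers at an unadjusted p under 0.05, at 107 ± 17.4 against 80.4 ± 8.85 CPM (SD, n = 5, edgeR adjusted p = 0.19). Of 9 tuft cell markers 1 was lower, of 15 stem cell and Wnt target genes 1 was lower, of 20 cell cycle genes 1 was higher and of 22 cholesterol synthesis genes 1 was higher. In the last 2 lists nearly all members lay above 0, beside 8633 of all 17893 tested genes. These were 19 of 20 cell cycle genes (median log2 fold change 0.28) and 21 of 22 cholesterol synthesis genes (median 0.29). The summed levels overlapped, at 476 to 1058 against 424 to 793 CPM for cell cycle genes. For cholesterol synthesis genes they were 1360 to 3632 against 1355 to 2566 CPM. In each list 3 of the 5 mice on the high dose lay above all 5 on the low dose. Other lists also lay mostly above 0, among them 16 of 18 goblet cell markers, 16 of 17 antigen presentation genes and 11 of 12 B cell markers. Of the 15 stem cell and Wnt target genes 4 did. The goblet cell markers had a median of 0.21, and their summed levels overlapped, at 9889 to 18230 against 9150 to 12870 CPM. Without the 3 mice of disagreeing labels 4 goblet cell markers and 2 cell cycle genes were higher, 2 stem cell and Wnt target genes were lower, and 0 tuft cell markers were lower.

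Ribosomal protein genes were the list with the largest share of members lower at 10% RPS. Of 82 tested, 45 were lower and 0 higher at an unadjusted p under 0.05, beside 6.67% of all tested genes lower, and their median log2 fold change was -0.20. Rpl39 measured 206.0, 219.6, 226.3, 234.2 and 259.6 CPM on the high dose and 266.4, 296.9, 299.0, 312.2 and 356.3 CPM on the low dose. All 5 mice of the high dose were lower (edgeR adjusted p = 0.0564). The summed level of the list was 26270 to 29910 CPM on the high dose and 26470 to 37260 CPM on the low dose, so the groups overlapped, and without the 3 mice of disagreeing labels 11 of 82 were lower and 1 higher. These genes are short, and median log2 fold changes over all tested genes ran from -0.0296 in the fifth with the shortest transcripts to 0.0058 in the fifth with the longest. The part of transcript length in the ribosomal result was not tested. Of 92 nuclear genes of oxidative phosphorylation 12 were lower and 0 higher, and without the 3 mice 4 were lower and 2 higher.

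Further genes with no overlap and the smallest p among those lower were Mfap3l, Ndufb11, Gpt2, Abhd14b, Klk15, Sult1c2 and Rasa4, none of them called. Gpt2, which makes glutamate and pyruvate from alanine, measured 24.3 to 28.3 CPM on the high dose and 34.1 to 42.8 CPM on the low dose. Klk15, a kallikrein protease, measured 0.901 to 2.88 CPM against 4.04 to 6.35 CPM, and Sult1c2, a sulfotransferase, 17.6 to 24.7 CPM against 28.2 to 43.3 CPM. Their edgeR adjusted p-values were 0.101 for Gpt2 and 0.114 for the other two. Adam15, a membrane protease, was a gene of very even level in the other direction, at 134 ± 4.74 against 111 ± 4.06 CPM (SD, n = 5, edgeR adjusted p = 0.0564).

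Among markers of the tissue layers under the epithelium, those of enteric neurons and glia were most often lower. Of 14 enteric neuron and glia markers 5 were lower, among them S100b, Sox10, Tubb3 and Prph, and 0 higher, with a median log2 fold change of -0.22, and the same count of 5 was lower without the 3 mice of disagreeing labels. S100b, a calcium-binding protein of glia, measured 2.43, 2.48, 2.94, 4.22 and 5.33 CPM on the high dose and 5.22, 5.43, 5.53, 5.71 and 5.93 CPM on the low dose, so that only mouse RS10_727 of the high dose reached the low-dose range (edgeR adjusted p = 0.169). Of 14 smooth muscle markers 1 was lower, with a median of -0.19 and a summed level of 12980 to 16060 CPM against 12190 to 19710 CPM. Of 10 fibroblast markers 1 was lower, with a median of -0.0014, and of 8 adipocyte markers none had an unadjusted p under 0.05. The single smooth muscle and fibroblast genes stand beside 6.67% of all tested genes that were lower. Leaving out the 3 mice gave 0 smooth muscle markers and 1 fibroblast marker that were lower.

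Posterior Hox genes mark position along the colon. Of 9 tested 2 were lower (Hoxd9 and Hoxb13) and 8 had a log2 fold change below 0, and without the 3 mice of disagreeing labels 0 were lower at an unadjusted p under 0.05. Their summed level was 712.5 to 820.6 CPM on the high dose and 804.2 to 939.9 CPM on the low dose, and 4 of the 5 mice on the high dose lay below all 5 on the low dose. The summed surface colonocyte markers were 15270 to 19280 CPM against 13210 to 14840 CPM, without overlap, also with any single marker left out. The part of the position of each piece along the colon, and of its share of muscle and nerve, in the results on epithelial genes was not tested. Of 7 tested squamous and anal skin markers 2 were higher and 1 lower, with a summed level of only 9.14 to 17.7 CPM against 9.25 to 16.9 CPM. Of 10 tested pancreas markers none had an unadjusted p under 0.05, but 9 had a log2 fold change above 0. Their median log2 fold change was 2.00, or 2.26 without the 3 mice of disagreeing labels. Their summed level, 384 to 819 CPM against 406 to 630 CPM, was mostly Cela1, at 419 against 491 CPM on average.

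**Figure D4:**
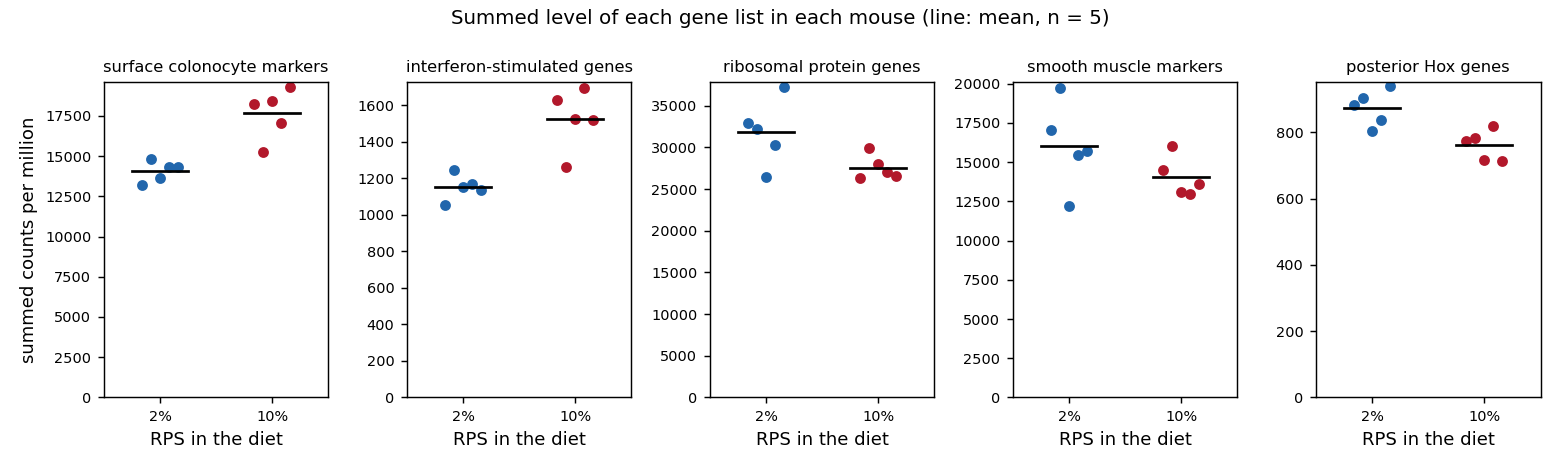
Summed level in CPM of 5 gene lists in each of the 5 mice at 2% RPS (blue) and the 5 at 10% RPS (red), with the mean as a line. Surface colonocyte markers and interferon-stimulated genes do not overlap between the diets, while ribosomal protein genes, smooth muscle markers and posterior Hox genes do.

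Clock genes were uneven among the mice. Dbp, a clock output gene, measured 3.76, 10.3, 23.7, 44.2 and 59.6 CPM on the high dose and 10.6, 35.5, 47.8, 48.0 and 82.9 CPM on the low dose, so the groups overlapped widely (edgeR adjusted p = 0.733). Of 18 clock genes 1, Per1, was lower, and of 17 immediate early genes 3 were lower (Klf2, Ier3 and Ier2). With a score of clock genes as a covariate 4 genes were called, of which 2, Slc26a3 and ENSMUSG00000085375, were among the 4. Abcg2 then had a log2 fold change of 0.57 beside 0.63 without the covariate (edgeR adjusted p = 0.0936), and Mgam2-ps one of 0.55 beside 0.63 (edgeR adjusted p = 0.115).

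The mice at 5% and 0% RPS were in neither group, and their comparison gives the same measure in other animals. All 4 genes called by edgeR had a log2 fold change above 0 at 5% against 0% RPS, with 0.48 ± 0.11 for Abcg2, 0.31 ± 0.11 for Mgam2-ps, 0.33 ± 0.19 for ENSMUSG00000085375 and 0.07 ± 0.10 for Slc26a3 (SE). Of the 80 genes called by DESeq2, 75 (93.8%) had the same direction, 54 of the 58 higher and 21 of the 22 lower, beside 65.6% of all tested genes. Median log2 fold changes of the 80 genes were smaller in the other mice, 0.42 against 0.91 for those higher and -0.34 against -0.82 for those lower. Slc9a3 had a log2 fold change of 3.23 and Rdh9 one of 1.39 at 5% against 0% RPS. Both pairs of diets were estimated in one fit, genes are not independent of each other, and mouse RS10_717 of the 5% RPS group is one whose labels disagree. Summed pancreas markers reached 5579 CPM in the highest mouse at 5% RPS, against 471.5 to 638.7 CPM at 0% RPS. With mouse RS10_721 of the 5% RPS group left out, all 4 genes called by edgeR kept their direction.

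**Figure D5:**
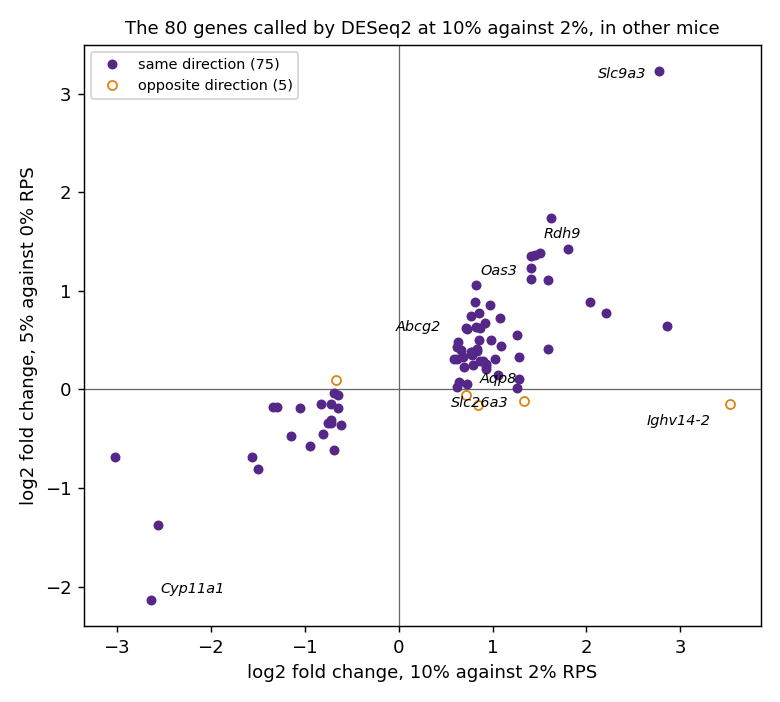
Log2 fold changes of the 80 genes called by DESeq2 at 10% against 2% RPS (horizontal axis) and of the same genes at 5% against 0% RPS, measured in other mice (vertical axis). The 75 filled dots have the same sign on both axes and the 5 open dots do not.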

How the data were processed

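The authors trimmed bases below Q30, removed reads with several ambiguous bases, mapped the 50-base single-end reads to GRCm39 in CLC Genomics Workbench 20.01 and deposited raw read counts per gene. The annotation release, the strand setting and how multiply matching reads were counted are not given in the sources used here. Of 26619 gene identifiers, 26338 were found in GENCODE M39, which gave symbols and 1-based GRCm39 positions. Groups came from the description label.

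Counts were analyzed in R 4.3.3 with edgeR 4.0.16 (filterByExpr at a minimum count of 10, TMM scaling, glmQLFit with robust estimation and glmQLFTest) in one fit over 20 mice on 4 diets. Levels are CPM after TMM scaling, and unadjusted p-values are from the same test. P-values were adjusted over all 17893 genes tested. DESeq2 1.42.0 and limma 3.58.1 (voom) were alternatives, beside other scaling, filters, labels, a clock covariate, thinning and each mouse left out. The removal of a trend with exonic length and the omission of mice RS10_725 and RS10_748 were chosen after seeing the data.

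Named genes were those called, filled to 8 per direction by smallest unadjusted p among genes of at least 1 CPM with no overlap, a set of genes the study discusses and up to 3 members of each list by smallest p. Some genes that this rule names are not reported here. The comparison, the lists and the motifs were chosen with earlier results of these data known, so no list was given a test of its own. Promoter windows came from RefSeq (GRCm38.p6) by gene symbol, and no coordinates were converted. Mouse numbers are unique to an animal. No pair of libraries within a diet looked like one library deposited again, with a chi-square per degree of freedom of 9.74 to 48.2 over genes.

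On simulated counts of 17758 genes for this comparison, edgeR recovered 32% of genes changed 1.5-fold, 86% of those changed 2-fold and 98% of those changed 3-fold, with 3 false calls among 161. The changed genes all had a mean of at least 1 CPM, with 50 genes at each fold. So many changed genes ease the cutoff on the adjusted p, and the real comparison had only 4 calls. These shares therefore do not give the recovery in the real data.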

Additional observations from a re-analysis of the deposited data

Results flagged for a closer look

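Dixon's test was applied to 156 sets of 5 mice, a named gene or a summed list in one diet, and 10 had a highest or lowest mouse that stood apart, where chance would give about 7.8 (1 in 20). At 10% RPS, mouse RS10_727 was highest for Scnn1b, at 23.8 CPM against 12.4 CPM in the next mouse, and for the summed metallothioneins, zinc and iron transport genes, at 2397 against 2007 CPM. Mouse RS10_725 was highest for Retnlb, at 2.05 against 0.426 CPM, and for summed antigen presentation genes, at 3513 against 2964 CPM. Mouse RS10_784 was lowest for Gpt2, at 24.3 against 27.5 CPM.

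At 2% RPS, mouse RS10_715 was lowest for Scnn1b, at 16.4 against 27.1 CPM, and highest for Pla2g2a, at 1.51 against 0.522 CPM, and for Mt1, at 210 against 89.6 CPM. Mouse RS10_712 was lowest for summed cell cycle genes, at 424 against 715.5 CPM, and mouse RS10_748 for summed fibroblast markers, at 2277 against 2878 CPM.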

How the results depend on the processing

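The 4 calls were 80 with DESeq2, 37 with the edgeR likelihood ratio test, 20 when only the 10 mice compared were fitted, 2 without robust estimation, 1 at a fold threshold of 2, and 0 under the treatment label, without the 3 mice of disagreeing labels and without RS10_725 and RS10_748. With single mice left out the calls ranged from 0 to 88. Limma-voom, other scaling, other filters, thinning and removal of the length trend gave 4 or 5. Without a fold threshold the 4 genes were 178 with DESeq2, 57 with the likelihood ratio test, 25 in the fit of 10 mice, 7 with RLE scaling, 2 without robust estimation and 0 under the other labels or without those mice, and from 0 to 161 with single mice left out. Genes without overlap fell from 378 to 146 under the treatment label. The difference in total count ranged from -4.39 M (without RS10_709, exact p = 0.0318) to -2.08 M with single mice left out. DESeq2 calls that kept their direction at 5% against 0% RPS numbered 75, beside 4 for edgeR. Dbp reversed with the clock covariate (0.366) and Retnlb under the treatment label (-0.328). The causes were not tested. Over 97 named genes and 25 settings, 2324 values kept their direction and their side of the threshold. Of the rest, 53 passed it newly, 40 no longer passed and 2 reversed. Most of these genes were not called in the main fit, so for them keeping their side meant staying uncalled. Only the 4 called genes could stop passing. Slc26a3 was called in 18, Mgam2-ps in 14 and Abcg2 in 11 of 25 settings, and ENSMUSG00000085375 in 16 of 24. RLE scaling moved the median log2 fold change of all genes from -0.0072 to 0.0044. Depth limits what can be said of genes under about 0.163 CPM. Effects of 1.5-fold were mostly missed in simulation, in part because a call itself required a fold of at least 1.5. No paired analysis was possible because mouse numbers are unique to an animal.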
